A study of Mus musculus with 36 samples.

Results

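The RNA levels of 10 heat shock chaperone genes (Hspa1a, Hspa1b, Hspa8, Hsph1, Hsp90aa1, Hsp90ab1, Dnajb1, Hspb1, Cryab and Hspd1) were followed in mouse pancreatic fibroblasts grown alone or with tumor cells. The genes were taken by their symbols from the count table, which gave 10 rows of 39017. All 10 passed the filter on low counts that left 14439 genes for testing. Chaperones bind unfolded or newly made proteins and help them to fold. When unfolded protein builds up in the cytosol, the transcription factor HSF1 binds heat shock elements in the promoters of many of these genes and raises their transcription. HSP70 proteins work with J-domain partners that hand over clients and with HSP110 proteins that exchange their nucleotide, HSP90 proteins finish the folding of kinases and receptors, and small heat shock proteins hold unfolded protein without using ATP. Although the 10 genes are grouped here as cytosolic chaperones, Hspd1 encodes the chaperonin HSP60 of the mitochondrial matrix.

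The fibroblasts came from C57BL/6 mice and no drug or engineered allele is named for them. In 8 groups they were co-cultured for 48 h with one tumor line, namely clone E, H, K, M, N, T or V, which the labels call tumor sub-clones, or KPC1, a name that the labels do not explain. Fibroblasts were then separated from the GFP-expressing tumor cells by flow cytometry, and the ninth group was fibroblasts in mono-culture, for which no source says whether they also passed the sorter. The titles of the mono-culture samples hold the letters PSC, which the labels do not explain either. Each group held 4 libraries, 36 in all, and each clone stands for itself only. Nothing in the labels says that the 4 libraries of a group came from separate cultures or animals, so that the p-values below measure the spread between these libraries, which may be technical. All comparisons with mono-culture share its 4 libraries. In the sample names these are numbered after all co-culture libraries, and the labels do not say whether they were processed apart. A difference from mono-culture and a difference between such runs could not be told apart.

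The libraries held between 12532122 and 21985538 counts. All 10 fibroblast markers were detected in every group, with a mean of 7268 CPM (the counts-per-million scale, with libraries scaled by the trimmed mean of M-values method) for Col1a1 in mono-culture, whereas the defining leukocyte marker Ptprc and the defining endothelial marker Cdh5 stayed at or below 0.058 CPM in the mean of each group. Of 10 epithelial markers tested 9 were higher in the mean of the clones than in mono-culture, beside 24.3% of all genes tested. The summed level of all 15 was 4.64 to 6.11 CPM in mono-culture and 23.7 to 870 CPM in the 32 co-culture libraries. It was on average lowest with clone V (116 ± 94.6 CPM, SD, n = 4) and highest with clone N (563 ± 105 CPM). Krt8, an epithelial keratin, averaged 0.0229 CPM in mono-culture, 19.5 with clone V and 156 with clone N, while Epcam, another defining marker, was at 0.177 CPM in mono-culture and lower in every co-culture. Summed immediate early genes were 844, 2411, 2608 and 865 CPM in mono-culture and 1429 to 6428 CPM in co-culture. Mono-culture replicate 4 also had 2.16% mitochondrial counts, against 3.01% to 4.74% in the other libraries. The part of tumor-cell RNA, of handling and of mitochondrial RNA in the results below was not tested, and in bulk RNA fewer cells of a kind and less RNA per cell cannot be told apart.

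Per length of transcript, on the deposited RPKM scale (reads per kilobase of transcript, scaled to the library total), both HSP90 genes, Hspa8 and Hspd1 were the most abundant. Averaged over the 36 libraries, Hsp90ab1 stood at 1209 RPKM, Hspa8 at 678, Hsp90aa1 at 152 and Hspd1 at 137. Cryab followed at 39.1 RPKM, Dnajb1 at 20.5, Hsph1 at 19.9, Hspa1b at 14.9 and Hspb1 at 13.01. Hspa1a was the scarcest at 1.54 RPKM, with 33 to 130 counts in a library. Across the 9 groups the mean level of Cryab spanned a 4.82-fold range, that of Hspa1b 2.94-fold and that of Hspd1 2.73-fold, whereas Dnajb1 spanned 1.34-fold and Hspa8 1.46-fold.

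**Figure D1:**
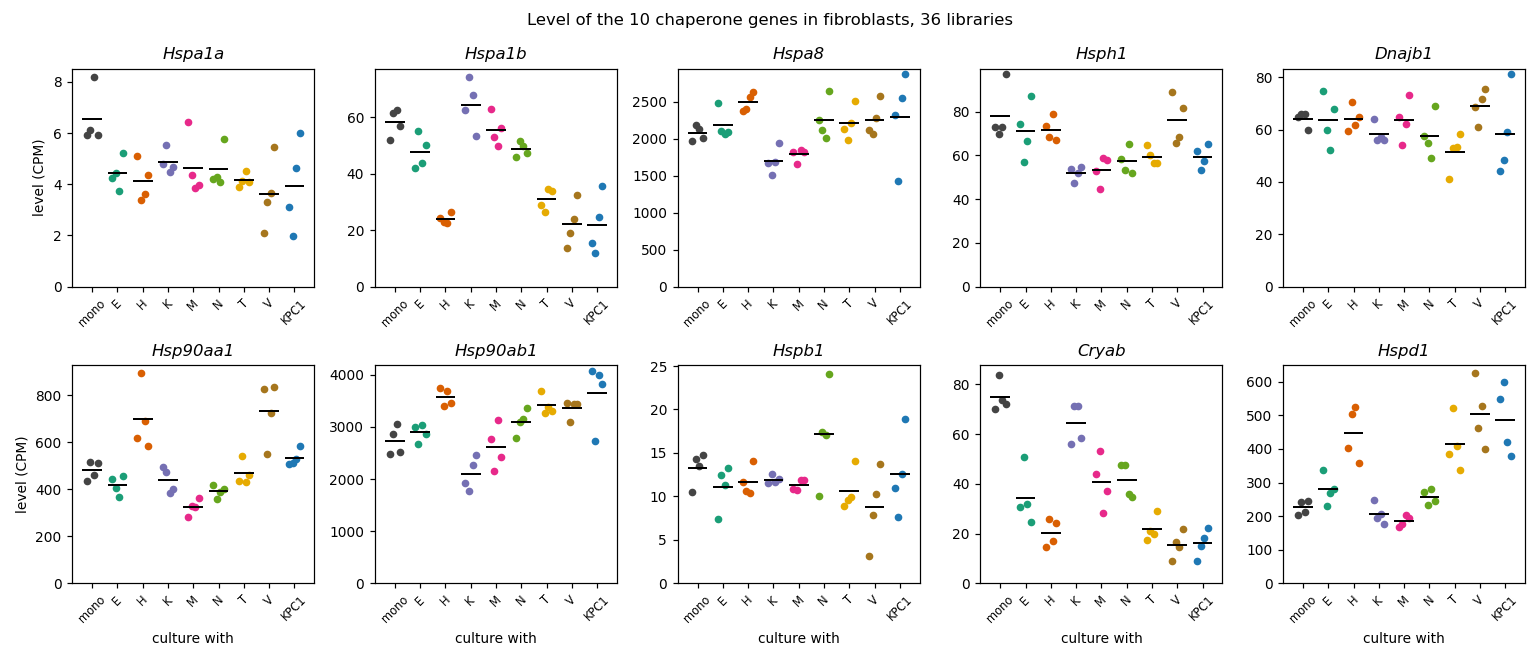
Level of each of the 10 genes in CPM (vertical axes from 0, a scale of its own in each panel) in mono-culture and the 8 co-cultures. Each point is a library and each black line the mean of 4 libraries. Cryab is highest in mono-culture (mean 74.9 CPM) and lowest with clone V (15.6 CPM), Hspd1 is highest with clone V (504 CPM), and Dnajb1 differs little between groups.

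The 10 genes did not move as one block. The largest changes were a fall of Cryab, which passed the test in 7 of 8 lines, a fall of Hspa1b in 4 of 8 lines and a rise of Hspd1 in the same 4 lines, namely clones H, T, V and KPC1. Hsp90aa1 rose with clones H and V and fell with clone M. Hsp90ab1 rose with clones H, T, V and KPC1 and fell with clone K, and Hsph1 fell with clones K, M, N, T and KPC1. Hspa1a was lower in all 8 lines and passed the test with clones H, T, V and KPC1. Hspa8, Dnajb1 and Hspb1 passed the test in none of the 8 lines. A gene is called changed here at an adjusted p under 0.05 in the quasi-likelihood test of edgeR, adjusted by the Benjamini-Hochberg method over all 14439 genes, and log2 fold changes are on the scale of normalized counts.

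The share of members called was read against the share of all genes called in the same comparison. With clone E, 1 member was called, lower, against 32% of all genes called and 15.5% called lower. Clone H gave 6 members, 3 higher and 3 lower, against 54.2% of all genes (27.8% higher, 26.4% lower). With clone K 2 members were lower, where 19.1% of genes were called and 8.69% were lower, and with clone M 3 were lower against 23% and 10.8%. Clone N gave 2 lower members, with 39% of genes called (19.7% higher, 19.2% lower). For clone T the count was 2 higher and 4 lower, beside 49.8% of genes (25% higher, 24.7% lower). Clone V gave 3 higher and 3 lower beside 58.3% (29.4% and 28.9%), and KPC1 2 higher and 4 lower beside 59% (30.5% and 28.5%). These shares of 10 were near those of all genes or, with clones E and N, below them, so that the counts are no result about the 10 genes as a set. Their median log2 fold change ran from -0.32 with clone T to 0.04 with clone V, where the median of all genes lay between -0.01 and 0.01.

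**Figure D2:**
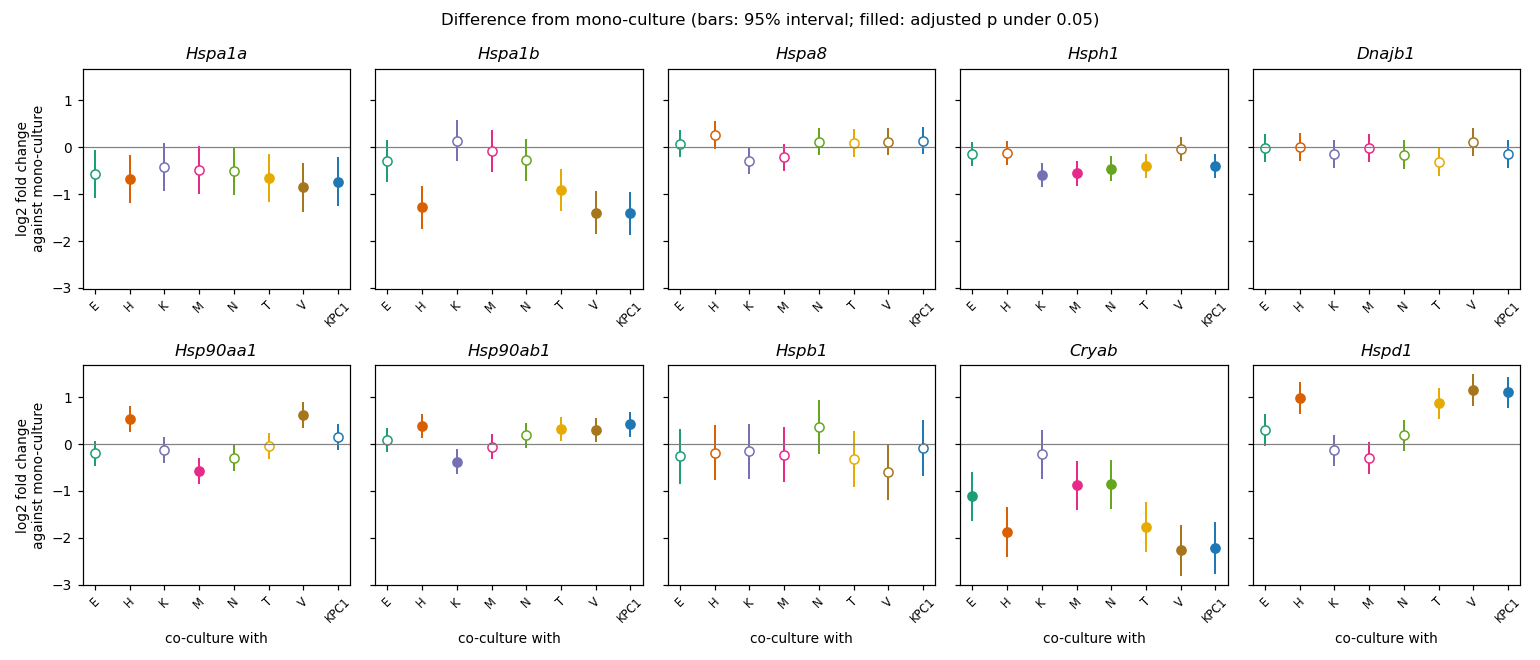
Log2 fold change of each gene against mono-culture (vertical axes, the same scale in all panels) for the 8 co-cultures. Circles are estimates of the fit over 36 libraries, bars their 95% intervals, and filled circles passed an adjusted p of 0.05. Cryab lies lowest with clone V (-2.27) and KPC1 (-2.22), and Hspd1 highest with clone V (1.15).

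Hspa1a and Hspa1b encode the stress-inducible HSP70 proteins of the cytosol, which are the classic targets of HSF1. The genes lie on the minus strand of chromosome 17 (GRCm38, the build of mm10), Hspa1a (ENSMUSG00000091971) at chr17:34969190-34972156 and Hspa1b (ENSMUSG00000090877) at chr17:34956436-34959238. Their promoters are near copies, since 247 of the 250 bases before the start sites were identical (98.8%). In the RefSeq promoters of GRCm38.p6, both stretches from 150 to 51 bases before the start site, at chr17:34972207-34972306 for Hspa1a and chr17:34959289-34959388 for Hspa1b, held the same pair of inverted heat shock triplets, GAANNTTC, printed in capitals.
Hspa1a: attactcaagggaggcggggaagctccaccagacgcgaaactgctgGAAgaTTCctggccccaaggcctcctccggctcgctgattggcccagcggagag
Hspa1b: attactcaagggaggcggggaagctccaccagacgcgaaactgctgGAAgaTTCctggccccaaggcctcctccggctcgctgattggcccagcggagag
The lines are shown to make plain that the printed letters are the same at both genes, and the transcripts share much of their sequence as well. Of the 76-base windows along Hspa1a transcripts, 52.5% also occur in Hspa1b, and 55.6% of those of Hspa1b occur in Hspa1a. Reads from such windows can be assigned to either gene or to none, so the values of each single gene are uncertain.

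In mono-culture Hspa1b stood at 51.7, 61.5, 62.7 and 56.9 CPM in replicates 1 to 4. It was 24.1, 22.98, 22.6 and 26.4 CPM with clone H and 29.04, 26.5, 34.4 and 33.99 CPM with clone T. All 8 of these co-culture libraries lay below the lowest mono-culture library. With clone V the values were 13.5, 19.02, 23.8 and 32.5 CPM, and with KPC1 they were 15.5, 11.8, 24.8 and 35.6 CPM. These libraries too lay below mono-culture without overlap, but they spread more widely among themselves than those of clone H. Relative to mono-culture Hspa1b fell by 1.28 on the log2 scale with clone H (SE 0.21, edgeR adjusted p = 1.1e-05), by 0.91 with clone T (SE 0.21, adjusted p = 7.0e-04), by 1.39 with clone V (SE 0.22, adjusted p = 2.4e-06) and by 1.41 with KPC1 (SE 0.22, adjusted p = 2.1e-06). The last of these is a 2.65-fold lower level.

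The other 4 clones did not pass the test for Hspa1b, though clones E and N passed it, lower, when only the 8 libraries compared were in the fit (edgeR adjusted p = 0.039 and 0.028). Its level averaged 47.7 ± 6.09 CPM with clone E, 64.4 ± 8.79 CPM with clone K, 55.5 ± 5.56 CPM with clone M and 48.6 ± 2.58 CPM with clone N (SD, n = 4), beside 58.2 ± 4.97 CPM in mono-culture. Clone K was the only group with a higher mean than mono-culture, with a log2 difference of 0.15 (95% interval -0.28 to 0.57). Hspa1a stood at 5.94, 6.11, 8.21 and 5.94 CPM in mono-culture, where replicate 3 was apart from the others. With clone V it was 2.09, 3.32, 3.65 and 5.44 CPM, and 30 of the 32 co-culture libraries lay below all 4 mono-culture libraries. Hspa1a fell by 0.85 on the log2 scale with clone V (SE 0.24, edgeR adjusted p = 0.0033), by 0.73 with KPC1 (adjusted p = 0.01), by 0.67 for clone H (0.02) and by 0.65 for clone T (0.025). With clones E, N, M and K its log2 differences were -0.56, -0.51, -0.49 and -0.42, lower as well but not past the threshold. Without mono-culture replicate 3 the adjusted p rose to 0.086 for clone H and 0.098 for clone T, and without KPC1 replicate 2 to 0.063 for KPC1. Leaving out clone H replicate 2 or 3, or clone T replicate 1 or 2, also ended the call of that clone. Summed to 1 gene, Hspa1a and Hspa1b fell by 1.33 on the log2 scale for clone V, 1.32 for KPC1, 1.20 for clone H and 0.88 for clone T, all past the threshold. In mono-culture, replicates 2 and 3, which held the more immediate early gene RNA, also had the higher Hspa1b, and the part of handling in these values was not tested.

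Hspa8 encodes HSC70, the constitutive HSP70 that carries out most routine folding and clathrin uncoating. The gene (ENSMUSG00000015656) lies at chr9:40800984-40810087 (plus strand), and 32.8% of its 76-base windows also occur in other genes, mostly in the gene model Gm15459, so that its counts are uncertain to that extent. Its level was 1966, 2183, 2134 and 2005 CPM in mono-culture and 2372, 2401, 2556 and 2624 CPM with clone H, where every library was above the highest of mono-culture. With clone K it was 1665, 1509, 1687 and 1943 CPM, each below the lowest of mono-culture. Neither difference passed the test, at log2 fold changes of 0.26 (95% interval -0.01 to 0.53, edgeR adjusted p = 0.091) and -0.28 (-0.55 to -0.02, adjusted p = 0.14), but clones H and K differed from each other by 0.55 on the log2 scale (SE 0.13, adjusted p = 0.00096). KPC1 replicate 2, at 1424 CPM, was far below the other KPC1 libraries at 2321, 2543 and 2873 CPM. Without it the log2 fold change with KPC1 was 0.32 (adjusted p = 0.013), and with it 0.14 (0.36).

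Hsph1 (HSP110) exchanges the nucleotide of HSP70 and helps it to dissolve aggregates. The gene (ENSMUSG00000029657) lies at chr5:149614287-149636376 (minus strand). Mono-culture libraries stood at 72.9, 69.9, 72.9 and 96.99 CPM, replicate 4, the library with the low mitochondrial share, being the high one. With clone K the values were 53.5, 47.1, 52.1 and 54.5 CPM, and with clone M 52.7, 44.4, 58.6 and 57.7 CPM. All of them were below mono-culture, and so were the 4 libraries each of clones N and T and of KPC1. Hsph1 fell by 0.59 on the log2 scale with clone K (SE 0.12, edgeR adjusted p = 4.7e-04), by 0.55 with clone M (adjusted p = 8.1e-04), by 0.45 with clone N (0.0029), by 0.40 with clone T (0.0058) and by 0.40 with KPC1 (0.0047). With clone V, where Cryab and Hspa1b fell most among the clones, Hsph1 stayed at 76.2 ± 11.01 CPM (SD, n = 4) and differed from mono-culture by -0.04 on the log2 scale (-0.28 to 0.20). Clone V exceeded clone K by 0.56 on the log2 scale (SE 0.12, adjusted p = 0.00020). Mono-culture replicate 4 weighed on this gene, since without it the log2 fold change with clone T was -0.27 with an adjusted p of 0.058, and the value with clone V turned to 0.09.

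Dnajb1 (HSP40) is the stress-inducible J-domain partner of HSP70 and lies at chr8:83608193-83612653 (ENSMUSG00000005483, plus strand). It stood at 64.9, 65.96, 66.1 and 59.7 CPM in mono-culture and hardly differed with most clones. Its lowest mean was with clone T (51.5 ± 7.28 CPM, SD, n = 4), where all 4 libraries lay below mono-culture, and its highest with clone V (69.2 ± 6.10 CPM). Against mono-culture these were log2 differences of -0.32 (-0.60 to -0.04, edgeR adjusted p = 0.056) and 0.11 (-0.17 to 0.39, adjusted p = 0.52). With KPC1 the values were 44.1, 48.5, 59.2 and 81.3 CPM, which reach from below to above mono-culture. Without clone T replicate 4 the value with clone T was -0.38 and passed (0.035). For KPC1, leaving out the highest, replicate 4, gave a log2 fold change of -0.34 (adjusted p = 0.025), in place of -0.14 (0.4). Among clones the spread of Dnajb1 was not past the threshold (adjusted p = 0.12).

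Hsp90aa1 and Hsp90ab1 encode the inducible and the constitutive HSP90 of the cytosol. Hsp90aa1 (ENSMUSG00000021270) lies at chr12:110690605-110702728 and Hsp90ab1 (ENSMUSG00000023944) at chr17:45567775-45573271, both on the minus strand. Of the windows of Hsp90aa1, 42.6% also occur in other genes, and of those of Hsp90ab1 0.476%. Hsp90aa1 stood at 435, 516, 459 and 511 CPM in mono-culture. It was 825, 552, 727 and 836 CPM with clone V and 619.9, 897, 692 and 583 CPM with clone H. Each of these 8 libraries exceeded the highest mono-culture library. With clone M it was 281, 329, 324 and 362 CPM, all below the lowest mono-culture library. Hsp90aa1 thus rose by 0.61 on the log2 scale with clone V (SE 0.12, edgeR adjusted p = 9.4e-05) and by 0.54 with clone H (SE 0.12, adjusted p = 5.1e-04), and fell by 0.57 with clone M (SE 0.12, adjusted p = 9.7e-04). With clone T, where Hspa1b fell and Hspd1 rose, Hsp90aa1 averaged 467 ± 50.7 CPM (SD, n = 4) and its log2 difference was -0.04 (-0.29 to 0.21). Clones V and M were 2.27-fold apart (log2 difference 1.18, SE 0.13, adjusted p = 4.6e-09). With clone N the log2 fold change of -0.29 missed the threshold (adjusted p = 0.061) and passed it without clone N replicate 1 (0.046) or without mono-culture replicate 1 (0.038).

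Hsp90ab1 was 2473, 2866, 3047 and 2519.7 CPM in mono-culture. It was 3738, 3390.2, 3696 and 3451 CPM with clone H and 4066, 2734, 3992 and 3830.2 CPM with KPC1. Every library of clone H and all of KPC1 but replicate 2 were above mono-culture. With clone K it was 1929, 1761, 2260.2 and 2453 CPM, all below the lowest mono-culture library. Hsp90ab1 rose by 0.42 on the log2 scale with KPC1 (SE 0.12, edgeR adjusted p = 0.0027), by 0.39 with clone H (0.0063), by 0.32 with clone T (0.023) and by 0.30 with clone V (0.029), and fell by 0.38 with clone K (0.023). The calls with clones T and V were fragile. Without scaling beyond the library totals the log2 fold changes were 0.25 and 0.21 (adjusted p = 0.081 and 0.14), and limma on log2 RPKM likewise gave no call. They were also lost without mono-culture replicate 1 or 4, that of clone T without its replicate 1, and that of clone V without its replicate 1, 3 or 4. The call with clone K was lost without replicate 1 or 2 of clone K or replicate 2 or 3 of mono-culture, where the highest adjusted p was 0.11.

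Cryab encodes alpha B-crystallin, a small heat shock protein of muscle, lens and mesenchymal cells that binds unfolded protein and intermediate filaments. The gene (ENSMUSG00000032060) lies at chr9:50751325-50756636 (plus strand) and overlaps Hspb2, another small heat shock protein gene on the opposite strand. Cryab stood at 69.9, 83.9, 73.6 and 72.2 CPM in mono-culture. With clone V it was 9.11, 16.7, 14.7 and 21.8 CPM, with KPC1 9.02, 14.9, 18.4 and 22.3 CPM and with clone H 14.4, 25.8, 16.98 and 24.3 CPM. The highest of these 12 libraries lay far below the lowest mono-culture library. With clone T it was 17.4, 21.2, 19.8 and 29.2 CPM, with clone E 30.7, 50.6, 32.02 and 24.6 CPM, with clone M 43.7, 53.3, 28.2 and 37.2 CPM and with clone N 47.6, 47.6, 35.8 and 34.5 CPM. These groups also did not overlap mono-culture, whereas clone K did, with 56.01, 71.3, 71.3 and 58.4 CPM.

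Cryab fell by 2.27 on the log2 scale with clone V, a 4.83-fold lower level (SE 0.26, edgeR adjusted p = 1.7e-08). The log2 fold change was -2.22 with KPC1 (SE 0.26, adjusted p = 2.7e-08), -1.87 for clone H (4.6e-07), -1.77 for clone T (1.3e-06), -1.12 with clone E (8.6e-04), -0.88 with clone M (0.0089) and -0.85 with clone N (0.0063). Clone K, at -0.22 (95% interval -0.72 to 0.27), was the one line without a call. Clones V and K were 4.14-fold apart (log2 difference -2.05, SE 0.26, adjusted p = 1.4e-07). Hspb2, scarce at 2.12 CPM in mono-culture, fell by 1.82 on the log2 scale with clone V (5.0e-04), 1.61 with KPC1 (0.0015), 1.54 with clone T (0.0028) and 1.26 with clone H (0.01). The kit marks strand, but no source says that the counting used it, and 11.4% of the 76-base windows of Cryab occur in Hspb2, so that reads of the overlap cannot be assigned with certainty.

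The fibroblast markers moved in some of the same lines as Cryab and Hspa1b. Of 10 markers, 5 were lower in co-culture with clone H and 5 with V, 6 each for clone T and KPC1, and none for clones E, K, M and N. Of all genes 26.4%, 28.9%, 24.7% and 28.5% were lower with H, V, T and KPC1, and 15.5%, 8.69%, 10.8% and 19.2% with E, K, M and N, so that the same 4 lines held more lower calls in general. Pdgfra, a receptor of fibroblasts, fell from a mean of 312 CPM in mono-culture to 97.1 with clone V and 107 with KPC1, whereas 2 to 4 markers were higher in each of the 8 lines. The summed level of the 10 markers was 23496 to 25395 CPM in mono-culture and 13494 to 36904 CPM in co-culture. Epithelial RNA did not follow the same order, since clone N had the highest summed level and its Cryab averaged 41.4 ± 7.19 CPM, while clone V had the lowest and its Cryab averaged 15.6 ± 5.24 CPM (SD, n = 4). Within clone V, however, replicates 1 to 4 held 44.7, 40.6, 140 and 240.3 CPM of epithelial markers, and Hspa1b, Cryab and Hspb1 were all highest in replicate 4. Clone T went otherwise, since replicate 1 held the most epithelial RNA of that clone (870 CPM). Its Cryab (17.4 CPM) and Hspb1 (8.93 CPM) were the lowest of the clone, while its Hspa1b was not. The part of residual tumor cells in the spread within groups was not tested.

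Hspb1 encodes HSP25, the small heat shock protein that binds actin. The gene (ENSMUSG00000004951) lies at chr5:135887919-135889563 (plus strand). Its promoter held GAANNTTC at 2 places, in capitals in the stretch from 130 to 71 bases before the start site (chr5:135887789-135887848), which is shown beside those of Hspa1a and Hspa1b because it holds the pair more than once.
Hspb1: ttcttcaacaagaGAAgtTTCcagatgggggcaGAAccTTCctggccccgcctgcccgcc
Hspb1 stood at 10.5, 14.2, 13.5 and 14.8 CPM in mono-culture. It was 3.15, 7.85, 10.3 and 13.8 CPM with clone V and 10.04, 17.4, 17.1 and 24.04 CPM with clone N, so that both clones overlapped mono-culture. Its log2 fold change was -0.61 with clone V (-1.18 to -0.03, edgeR adjusted p = 0.065) and 0.37 with clone N (-0.20 to 0.93, adjusted p = 0.31). The difference between clones V and N was 1.96-fold (log2 difference -0.97, SE 0.28, adjusted p = 0.0058) and was the only one of the 28 pairs of lines to pass. Without mono-culture replicate 1 or without clone V replicate 4 the fall with clone V passed (0.049 and 0.0089). Hspb1 had a wide spread among libraries of a group, with a median coefficient of variation of 22.1%, and that of Cryab was wider still, at 26.1%. Of the 76-base windows of Hspb1, 46.3% occur in the pseudogene Hsp25-ps1.

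Hspd1 encodes HSP60, which folds proteins imported into mitochondria together with its lid HSP10, the product of Hspe1. The genes are neighbors that point away from each other on chromosome 1, Hspd1 (ENSMUSG00000025980) on the minus strand (chr1:55077835-55088243) and Hspe1 on the plus strand (chr1:55088132-55091307), and they share a promoter. Of the windows of Hspd1, 30.7% also occur in other genes, mostly in the pseudogene Hspd1-ps3. The 30 bases at chr1:55088053-55088082, given on the plus strand and shown because they lie in the RefSeq promoters of both genes, held GAA and TTC triplets in a row (in capitals). They also fall in an annotated exon of Hspd1, whose longest transcript starts farther out.
Hspd1 and Hspe1: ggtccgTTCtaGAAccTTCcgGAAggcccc
Of the 10 genes, 6 had a promoter in the RefSeq table (Hspa1a, Hspa1b, Hsph1, Dnajb1, Hspb1 and Hspd1), and Hspa8, Hsp90aa1, Hsp90ab1 and Cryab did not match. The triple element GAANNTTCNNGAA, or its reverse complement TTCNNGAANNTTC, was in the promoters of Hspd1 and Hsph1, which in Hsph1 was after the start site, and in 198 of 32851 promoters of 300 bases overall (0.603%). At least 1 pair, GAANNTTC or TTCNNGAA, of which the triple holds both, was in 5 of the 6 promoters and in 15.1% of all. Such a match says only which letters are in the window.

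Hspd1 stood at 203, 243, 214 and 246 CPM in mono-culture. It was 626, 462, 526 and 400.5 CPM with clone V, 549, 599, 420.3 and 378 CPM with KPC1 and 403, 505, 524 and 359.5 CPM with clone H. With clone T it was 385, 522, 410.0 and 338 CPM. All 16 of these libraries lay above the highest mono-culture library. Hspd1 rose by 1.15 on the log2 scale with clone V, a 2.22-fold higher level (SE 0.16, edgeR adjusted p = 2.2e-07), by 1.10 with KPC1 (4.7e-07), by 0.98 with clone H (3.8e-06) and by 0.87 with clone T (2.6e-05). With clones E, K, M and N the means were 279, 206, 185 and 258 CPM and the log2 differences 0.30, -0.14, -0.29 and 0.19, none past the threshold. When only the 8 libraries compared were in the fit, clone E passed, higher (edgeR adjusted p = 0.042), and clone M passed, lower (0.027). Clones V and M were 2.73-fold apart (log2 difference 1.45, SE 0.16, adjusted p = 6.1e-09). Hspe1, named after its values were seen because it shares the promoter, had a mean of 87.04 CPM in mono-culture and rose by less, by 0.53 with clone V (0.0047), 0.52 with KPC1 (0.0053) and 0.44 for clone H (0.019), while its 0.19 with clone T missed the threshold (0.34).

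Across the groups Hspd1 stood in nearly the opposite order to Hspa1b and Cryab. From low to high, Hspd1 ran clone M, clone K, mono-culture, clone N, clone E, clone T, clone H, KPC1 and clone V, and Hspa1b ran KPC1, clone V, clone H, clone T, clone E, clone N, clone M, mono-culture and clone K. Cryab ran clone V, KPC1, clone H, clone T, clone E, clone M, clone N, clone K and mono-culture. Most steps between neighbors in these orders were small. Of the 80 steps between neighboring groups over the 10 genes, 1 passed the test, that of Hspd1 from clone E to clone T (0.57 on the log2 scale, SE 0.15, edgeR adjusted p = 0.018). Among libraries of 1 group, log2 levels of Hspa1b and Hspd1, each taken as the difference from its group mean, had a Pearson r of -0.67 over 36 libraries, against -0.93 without the subtraction. For Cryab and Hspd1 these values were -0.56 and -0.87, and for Hspa1a and Hspa1b, which share sequence, 0.85 and 0.74. The points of a pair of genes share a library, its depth and its scaling, and libraries of a group share their culture conditions, so that the values are descriptions.

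**Figure D3:**
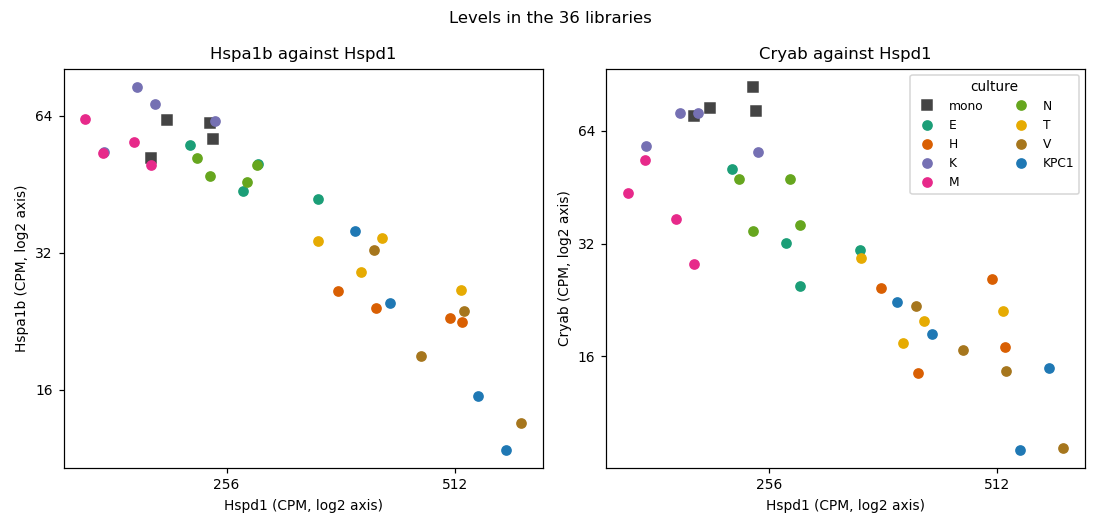
Level of Hspa1b (left) and Cryab (right) against that of Hspd1 in the 36 libraries, in CPM on log2 axes, with squares for mono-culture and circles for the 8 co-cultures. Libraries of clones H, T and V and of KPC1 lie at high Hspd1 (338 CPM and above) with low Hspa1b and Cryab, and those of mono-culture and clone K at the other end. Clone M lies at that end for Hspa1b and Hspd1, but its Cryab (28.2 to 53.3 CPM) is below that of mono-culture.

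For the question of what co-culture with a clone does on average, the mean of the 7 clones was set against mono-culture. Hspd1 was higher by 0.44 on the log2 scale (SE 0.12, edgeR adjusted p = 0.0031), and 4 members were lower. These were Cryab (-1.28, SE 0.17, 2.5e-07), Hspa1a (-0.59, SE 0.17, 0.0052), Hspa1b (-0.58, SE 0.15, 0.002) and Hsph1 (-0.33, SE 0.09, 0.0022). Of all genes 49.2% were called in this comparison, 24.3% higher and 24.9% lower. Cryab was below every mono-culture library in 26 of 28 clone libraries and Hspa1a in 27, whereas Hspa1b was in 20 and Hsph1 in 22. Without mono-culture replicate 3 the value of Hspa1a was -0.46 (adjusted p = 0.06), and without mono-culture replicate 4 that of Hsph1 was -0.21 (0.066).

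The level depended on the clone for 7 of the 10 genes, where 67.5% of all genes passed the same F-test among the 7 clones. It was passed by Hspd1 (adjusted p = 1.2e-09), Hsp90aa1 (2.2e-09), Cryab (2.1e-07), Hspa1b (2.6e-07), Hsp90ab1 (1.7e-05), Hsph1 (1.8e-04) and Hspa8 (0.0047), and missed by Hspb1 (0.083), Dnajb1 (0.12) and Hspa1a (0.7), all from edgeR. Hspb1 was near the threshold, and it passed without clone N replicate 1 (0.027) or clone V replicate 4 (0.020), with DESeq2 (0.048) and with the replicate number as a block (0.0068). Between single lines, Hspd1 differed in 18 of the 28 pairs of lines, Hsp90aa1 and Cryab in 16, Hspa1b in 14, Hsp90ab1 in 12, Hsph1 in 10 and Hspa8 in 8, where a median of 27.8% of all genes were called in a pair. Each of the 14 pairs of Hspa1b joined a line of H, T, V and KPC1 with a line of E, K, M and N, and the other 2 pairs of that kind, clones E and T and clones N and T, narrowly missed (adjusted p = 0.055 and 0.051). Dnajb1 differed in 1 pair, clones V and T (0.43, SE 0.14, 0.024). Hspa1a differed in none, and its widest pair, clones V and K, was 0.43 apart on the log2 scale (SE 0.24).

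Most of these differences separated clones H, T and V and KPC1 from clones E, K, M and N. Clone V differed from clones K and M in 7 members each (54.8% and 57.9% of all genes called), from clone N in 6 (43.5%) and from clone E in 4 (42.2%). Clone H differed from clones K and M in 7 (49.8% and 51.1%) and from clones E and N in 5 (31.6% and 32.3%). For KPC1 the counts were 5 against clone E (40.2%), 5 against clone K (56.1%), 6 against clone M (55.5%) and 4 against clone N (35.3%). For clone T they were 5 against clones K and M (41.4% and 40.5%), 2 against clone N (8.53%) and 1 against clone E (10.6%). Within the former lines the counts were small. None of the 10 genes differed between clones V and H (0.388%), KPC1 and clone H (2.89%) or KPC1 and clone T (5.36%), while clones T and H differed in Hsp90aa1 (7.58%), KPC1 and clone V in Hsp90aa1 and Hsph1 (10.7%), and clones V and T in Hsp90aa1, Hsph1 and Dnajb1 (24%). Within the latter, none differed between clones N and E (1.27%) or clones M and K (2.24%), 1 between clones N and M (Hspd1, 19.2%), 2 between clones N and K (Hspa8 and Hsp90ab1, 21.7%) and 3 between clone E and each of clones K and M (11.5% in both pairs).

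KPC1, the line that the labels do not call a clone, was also set against the mean of the 7 clones. Hspd1 was higher with KPC1 by 0.67 on the log2 scale (SE 0.11, edgeR adjusted p = 2.3e-05) and Hsp90ab1 by 0.30 (0.0061), while Cryab (-0.93, 6.7e-04) and Hspa1b (-0.83, 3.5e-04) were lower. That is 4 of 10 members, beside 41.1% of all genes called, 22.3% higher and 18.8% lower. Without KPC1 replicate 1 the difference of Hsp90ab1 was 0.24 (adjusted p = 0.059). Hspa8 was higher by 0.30 without KPC1 replicate 2 (0.0072) and Dnajb1 lower, at -0.26, without KPC1 replicate 4 (0.042).

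The other genes of the chaperone system were followed in lists of their own. Hsf1, which encodes the factor that drives the heat shock response, stood at 63.1 CPM in mono-culture and rose by 0.51 on the log2 scale with KPC1 (edgeR adjusted p = 1.4e-04), 0.33 with clone H (0.01) and 0.26 with clone V (0.034), but its 0.20 with clone T missed the threshold (0.11). Hsf1 RNA was thus higher in 3 of the 4 lines in which Hspa1b was lower. The list of heat shock factors had 4 genes tested, among them Hsbp1, which encodes a binding protein of HSF1 and no factor. In the mean of the clones none was higher and only Hsbp1 lower (-0.23, SE 0.09, 0.034), beside 24.3% and 24.9% of all genes. By line, 2 of the 4 were higher with clones H and V and KPC1 each (27.8%, 29.4% and 30.5% of all genes). With clones H and T and KPC1 1 was lower (26.4%, 24.7% and 28.5%). Among other heat-inducible genes Rgs2, a regulator of G protein signaling, fell (-1.68, 6.8e-05). The median of the list of heat shock factors was 0.03 in the mean of the clones, beside 0.01 for all genes.

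Of 8 other HSP70 and HSP110 genes, 3 rose and 2 fell in the mean of the clones (median 0.05), where 24.3% of all genes were higher and 24.9% lower, shares that also stand behind the counts of the next 3 lists. Hspa4l and Hspa4, which encode HSP110 proteins like Hsph1, rose by 0.47 (0.0033) and 0.42 (7.3e-05) where Hsph1 fell, and Hspa12a and Hspa12b fell by 0.46 (3.5e-04) and 0.43 (0.0096). Among 10 J-domain co-chaperones of the cytosol 3 rose, with Dnajb4 (0.44, 4.1e-05) and Dnajb6 (0.30, 7.1e-05) highest, and 2 fell, Dnaja4 (-0.36, 0.017) and Dnajc13 (-0.31, 0.0013). None of 10 genes for nucleotide exchange or docking on HSP70 rose and 4 fell (median -0.09), with the nucleotide exchange factors Bag5 (-0.89, 2.4e-06) and Hspbp1 (-0.45, 1.0e-04) lowest. Of 5 other small heat shock protein genes tested none rose and 2 fell, Hspb2 (-0.96, 0.0054) and Hspb8 (-0.64, 3.5e-05), and Hspb8 fell in each of the 8 lines. Clone K was the only line with genes of this list higher, 2 of the 5, beside 1 lower, where 10.4% of all genes were higher and 8.69% lower. All these values are log2 fold changes with edgeR adjusted p in parentheses.

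Among HSP90 co-chaperones, TRiC subunits and mitochondrial chaperones, most calls came from the lines in which Hspd1 rose, which also held the most calls over all genes (49.8% to 59%, against 19.1% to 39% in the other 4 lines). Whether the lists differed from all genes was not tested. In the mean of the clones 24.3% of all genes were higher and 24.9% lower, which holds for all 3 lists. Of 12 HSP90 co-chaperones 6 were higher and none lower in that mean (median 0.17), a count that was 3 without scaling beyond library totals and with limma on RPKM. The highest were the cyclophilin Ppid (0.66, SE 0.11, edgeR adjusted p = 2.0e-05) and Cacybp (0.30, 0.01). By line, 9 of 12 were higher with clone V, 8 with clone H, 7 with KPC1 and 6 each with clones N and T, against 3 with clone E and none with clones K and M. Of all genes 29.4% were higher with clone V, 27.8% with H, 30.5% with KPC1, 25% with T, 19.7% with N, 16.5% with E, 10.4% with K and 12.2% with M. Of the 8 subunits of TRiC, the chaperonin of the cytosol that folds actin and tubulin, 7 were higher with clone V, 6 with KPC1 and 5 each with clones H and T, and none with clones K and M. In the mean of the clones Cct2 (0.46, 1.3e-05) and Cct4 (0.32, 0.034) were highest among 5 that rose, and Cct7 fell (-0.22, 0.0046). Of 8 other mitochondrial chaperone genes, Hspe1 among them, 6 were higher with clone V and with KPC1, 5 with clone H and 4 with clone T, whereas with clone M none was higher and 5 were lower, beside 10.8% of all genes lower with that clone. Their mean over the clones hid this, with none higher and 2 lower (median 0.08), the protease partner Clpx (-0.33, 2.1e-04) and the mitochondrial HSP90 Trap1 (-0.23, 0.0081).

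**Figure D4:**
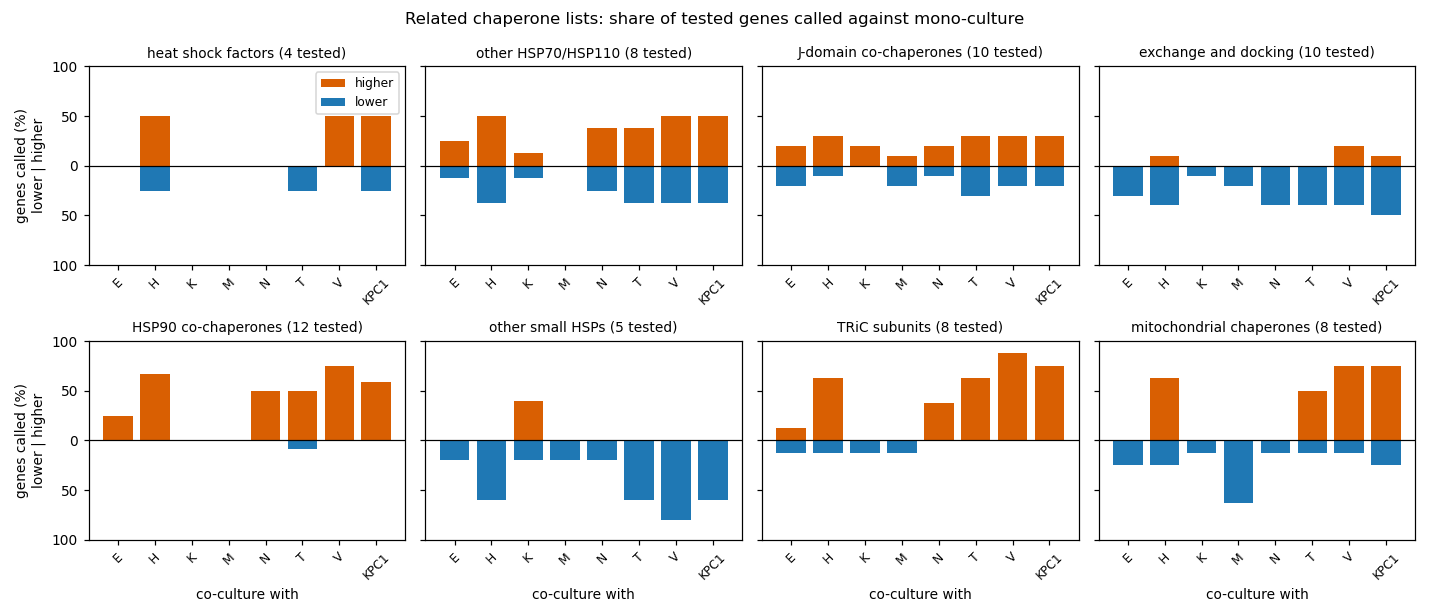
Share of the tested genes of 8 related chaperone lists that were called higher (upward bars) or lower (downward bars) against mono-culture in each of the 8 co-cultures, in percent of the genes tested in the list. With clone V, 7 of 8 TRiC subunits and 6 of 8 mitochondrial chaperones were higher, and with clone M 5 of 8 mitochondrial chaperones were lower.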

How the data were processed

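RNA of 36 samples was sequenced in paired-end mode (76 bases) from polyA-selected libraries made with a strand-specific kit (200 ng of RNA, 14 cycles of PCR). The authors deposited gene counts, which were not normalized and covered 39017 genes, and RPKM values of 37746 genes. The submitters' processing notes name STAR, featureCounts, edgeR and the mm10 build. Versions, annotation and strand setting are not given in the sources used here. The ratio of deposited counts to RPKM followed the library totals, so that RPKM had been scaled to the total of each library without a further factor. Groups were taken from the sample labels, and each gene or list member was matched by symbol, 2 of the 129 other list genes by gene ID. Libraries held 12532122 to 21985538 counts, and their number limits the precision. Replicate libraries differed by more than counting noise (lowest chi-square per degree of freedom 5.53), so that each was used as 1 sample.

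Genes with low counts were removed (filterByExpr, 14439 kept), and edgeR version 4.0.16 in R version 4.3.3 was run on the counts with trimmed mean of M-values scaling and the quasi-likelihood F-test over all 36 libraries, with Benjamini-Hochberg adjustment over all tested genes in each comparison and a threshold of 0.05. Each line, the mean of the 7 clones and KPC1 against that mean were contrasted, and the 7 clones were compared with 1 F-test. Intervals are at 95%. The fit was tested on simulated data with known changes. The alternatives were other scaling and filters, DESeq2 version 1.42.0, limma version 3.58.1 on log2(RPKM + 1) and log2(RPKM + 0.1), an adjusted p under 0.1, only the 8 libraries compared, a replicate term, and the libraries left out in turn. Such choices can change values of genes near the threshold. The 10 genes and the 14 lists were chosen with earlier results of these data known. All 10 genes were named. Some results of the list of other heat-inducible genes are not reported here. Of the lists, those called in the mean of the clones with the 2 highest or 2 lowest log2 fold changes of a list, defining markers and Hsf1 were named, and for likeness the 3 genes with the highest Pearson r to Hspa1a and to Hspb1 and the 5 to the mean z-score, at a mean of at least 2 CPM. Promoters came from RefSeq (GRCm38.p6) and gene positions and transcripts from GENCODE.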

Additional observations from a re-analysis of the deposited data

Results flagged for a closer look

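Of 90 sets of 4 libraries (10 genes in 9 groups), 6 had a highest or lowest library that stood apart, by a gap to its nearest neighbor of more than the limit for 4 values in relation to the whole range. Chance alone marks about 1 in 20 sets, here 4.5. Hspa1a in mono-culture (5.94, 6.11, 8.21 and 5.94 CPM) had replicate 3 apart, with a gap of 0.928 of the range. For Hspa1a with clone N (4.20, 4.28, 4.10 and 5.78 CPM) it was replicate 4, with 0.892. Hspa8 with clone E (2482, 2108, 2061 and 2089.9 CPM) had replicate 1 apart by 0.889. Hsph1 in mono-culture (72.9, 69.9, 72.9 and 96.99 CPM) had replicate 4 apart by 0.887, the library with the low mitochondrial share. In Hsp90ab1 with clone V (3459, 3098, 3433 and 3443 CPM) replicate 2 stood apart by 0.928, and in Dnajb1 with clone K (63.8, 55.9, 57.00 and 55.8 CPM) replicate 1 by 0.855.

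The difference from mono-culture depended on the clone for 7 genes in the F-test among the 7 clones, all with edgeR adjusted p. These were 1.2e-09 for Hspd1, 2.2e-09 for Hsp90aa1, 2.1e-07 for Cryab, 2.6e-07 for Hspa1b, 1.7e-05 for Hsp90ab1, 0.00018 for Hsph1 and 0.0047 for Hspa8. Among them Hsp90aa1 rose with clones H and V and fell with clone M, and Hsp90ab1 rose with clones H, T and V and fell with clone K. None of the other 5 was called both higher and lower among the clones.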

How the results depend on the processing

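Of the 32 changes called against mono-culture, 316 of 324 refits under other settings kept the call and none reversed it, and of 256 refits without 1 library 236 kept it. Of 484 refits of the 48 values that were not called, 33 gained a call, most of them for Dnajb1 with clone T and Hsp90aa1 with clone N (7 of 10 settings each) and Hspb1 with clone V (6 of 10). Dnajb1 with clone T had an adjusted p of 0.029 without scaling, 0.038 with at least 10 counts in every library, 0.025 and 0.024 with limma and 0.020 in the 8 libraries compared, beside 0.056, so that these 3 values lie at the threshold. With an adjusted p under 0.1, or with limma on log2(RPKM + 1), the number of members called became 2 for clone E and 4 for clone N. With only the 8 libraries compared in the fit it became 4 for clone E, 1 for clone K and 5 for clone N. In that setting Hspa1b was called lower with clones E (-0.28, edgeR adjusted p = 0.039) and N (-0.25, 0.028). Hspd1 was called higher with clone E (0.31, 0.042) and lower with clone M (-0.27, 0.027). Hspa8 with clone H (0.033) and Dnajb1 with clone T (0.020) gained a call there too. Leaving out 1 library gave 4 to 7 for clone T, 5 to 6 for clones H and V and 6 to 7 for KPC1, beside 6 each. It gave 2 to 3 for clone N and 1 to 2 for clone K, beside 2 each, and no change for clones E and M. The mean of the clones had 4 to 5, KPC1 against that mean 3 to 5 and the F-test among clones 7 to 8, beside 5, 4 and 7. Without scaling and with limma the HSP90 co-chaperones called in the mean of the clones fell from 6 to 3. Without a filter 0 genes of the list of heat shock factors were called, and with at least 10 counts in every library 1 small heat shock protein, 2 epithelial, 1 leukocyte and 0 endothelial genes, since fewer genes were then tested. Settings without scaling moved the median of all genes by less than 0.1 on the log2 scale. The cause of the other shifts was not tested.

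Changes of sign came only from values that were not called, which lay between -0.14 and 0.12. In KPC1 against the clones, 2 of these passed in another refit. They were Hspa8 without KPC1 replicate 2 (edgeR adjusted p = 0.0072) and Dnajb1 without KPC1 replicate 4 (0.042). Dnajb1 with clone H, at 0.0013, became -0.0079 with RLE scaling and with DESeq2, -0.087 without scaling, -0.036 with at least 10 counts in every library, -0.086 with limma on log2(RPKM + 1), -0.090 on log2(RPKM + 0.1) and -0.0022 in the 8 libraries compared, and Dnajb1 became 0.00023 with clone E and 0.0059 with clone M in that last setting. Hspa8 in the mean of the clones became -0.036 without scaling and -0.042 with both limma settings. Leaving out 1 library gave ranges of -0.26 to 0.045 for Dnajb1 (KPC1 against the clones), -0.092 to 0.081 for Dnajb1 (clone E), -0.047 to 0.034 for Dnajb1 (clone H), -0.096 to 0.060 for Dnajb1 (clone M), -0.11 to 0.0023 for Hsp90aa1 (clone T), -0.066 to 0.028 for Hsp90aa1 (the mean of the clones) and -0.15 to 0.027 for Hsp90ab1 (clone M), and of -0.41 to 0.084 for Hspa1a (KPC1 against the clones), -0.0029 to 0.30 for Hspa8 (KPC1 against the clones), -0.0093 to 0.054 for Hspa8 (the mean of the clones), -0.15 to 0.30 for Hspb1 (KPC1 against the clones), -0.35 to 0.094 for Hspb1 (KPC1), -0.18 to 0.00028 for Hsph1 (clone H) and -0.12 to 0.091 for Hsph1 (clone V).

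With the replicate number as a block, Hspa8 with clone H (0.26, edgeR adjusted p = 0.049), Dnajb1 with clone T (-0.32, 0.031) and Hspb1 with clone V (-0.67, 0.0076) and in the F-test among clones (0.0068, from 0.083) passed, Dnajb1 with clone H turned to -0.0011, and no call was lost. Same-numbered co-culture libraries tended to deviate together, with a correlation over 0.1 in 63 of 112 pairs (median 0.14), against 89 of 336 pairs with different numbers (median -0.04), and 24 of 36 libraries were closest to their own number. This did not hold in every pair or for mono-culture (5 of 32 pairs with it over 0.1), so that the numbers were not taken as pairs. In the sample names, however, the co-culture libraries of a replicate number form a consecutive run with 1 library from each line. The labels do not say what these runs stand for, and the main fit holds no term for them. Depth was no limit for most members, but Hspa1a rested on 33 to 130 counts in a library.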

Other observations

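Immediate early genes, which respond within minutes to serum, growth factors and handling, were partly higher in co-culture. Of 14 tested, 6 rose and none fell in the mean of the clones (median 0.68 on the log2 scale), beside 24.3% of all genes higher and 24.9% lower. Fosl1 (2.00, SE 0.24, edgeR adjusted p = 8.3e-08) and Egr2 (1.70, SE 0.31, 4.5e-05) were highest. Among the fibroblast markers, the receptor Pdgfrb (0.93, 4.1e-05) and the collagen Col6a1 (0.83, 4.5e-06) rose most, and the proteoglycan Lum (-1.22, 0.002) and Pdgfra (-0.70, 2.9e-04) fell. Of 3 leukocyte markers tested, Cd68, a lysosomal protein of macrophages, rose (1.01, 0.025) and Lyz2, the lysozyme of myeloid cells, fell from 3.32 CPM in mono-culture to 0.0517 with clone V (-3.49 over the clones, 4.4e-09). Of 3 endothelial markers tested, the receptor gene Tek fell (-1.11, 0.023).

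Among 11719 candidate genes, log2 levels of Nqo1 (Pearson r = 0.83), an antioxidant enzyme, Mtmr9 (0.82) and the tubulin gene Tubb2a (0.82) were most like those of Hspa1a over the 36 libraries. For Hspb1 they were Jam2 (0.79), Zrsr1 (0.78) and Arfgap3 (0.78). For the mean z-score of the 10 genes they were Yif1a (0.80), Med28 (0.78), Rnh1 (0.77), Cd164 (0.77) and Tbrg1 (0.76). All these points share libraries, depth and scaling.

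Replicate 4 had the highest Hspb1 in 7 of the 8 co-cultures, and replicate numbers accounted for 47.7% of the within-group variance of this gene. The share was nearly as large for Hspa8 (45.1%), Hsp90ab1 (44.7%) and Hsph1 (40.5%), and smallest for Hsp90aa1 (5.24%).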
